A study of Mus musculus with 8 samples.

Results

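The sarcomere and Z-disc genes examined here are 49 named genes for the contractile apparatus of the muscle fibre. Their members in the data are every region of the deposited accessibility table whose annotated gene is one of these names. The rule gave 1497 of 489637 regions and 48 of the 49 genes. Tnnc1, which encodes the troponin C of slow fibres and heart, was not analysed here. By role, 15 of the 48 genes belong to the thin filament, 9 to the thick filament, 3 to the M-band, 16 to the Z-disc and 5 to filament assembly and turnover.

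The sarcomere is the repeating contractile unit of striated muscle, in which myosin thick filaments slide along actin thin filaments. Thin filaments are anchored at the Z-disc and thick filaments are cross-linked at the M-band, while troponin and tropomyosin make thin filaments respond to calcium. Many of these proteins exist as a fast and a slow isoform from separate genes, and the gastrocnemius of the mouse consists mostly of fast fibres. ATAC-seq measures how readily a transposase inserts into chromatin, so a region with more reads is more accessible; it does not measure transcription.

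The study made 8 ATAC-seq libraries from mouse gastrocnemius collected at 6 months of age, 4 from Vehicle-treated mice and 4 from mice given Tamoxifen and named iMSBmal1KO. The genotype of all 8 is given as Cre+:iMSBmal1 fl/fl, so the Vehicle mice also carried the Cre and the floxed alleles. The groups therefore differed in tamoxifen and in loss of Bmal1, the core clock transcription factor also named Arntl, and these cannot be told apart. The name iMS stands for an inducible Cre of skeletal muscle, and the labels give neither its promoter nor the time of day of collection. Nuclei were purified from homogenised whole muscle, so nuclei other than those of fibres were included. Fewer nuclei of a type and less accessibility per nucleus cannot be told apart in such bulk samples. That the libraries are separate mice is not spelled out, and p-values measure the spread between these libraries.

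Depth was 4.31 to 19.7 M read equivalents (M, units of 1e+06) across the Vehicle replicates, and 11.2 to 29.5 M in the iMSBmal1KO libraries. Vehicle replicate 4 was the shallowest and stood apart, with correlations of log2 signal over member regions of 0.849 to 0.875 against the other libraries, where the highest between any pair was 0.944. It was the lowest of the 8 libraries for 38 of the 48 member genes (79.2%) and for 44.4% of all genes. Several of the larger values that rest on it are given without it as well. Medians by role and by section, and the values of the further sarcomere genes, are given with it only. All 6 fibre markers had accessible transcription start regions, at a median of 533 to 866 signal per kb in the Vehicle and 656 to 824 in the iMSBmal1KO libraries. Medians for markers of satellite, endothelial, fibro-adipogenic, smooth muscle, macrophage and fat cells stayed between 8.78 and 194 signal per kb, and the groups overlapped in every list. Markers without such a region are left out of these medians, which rest on 2 of 4 satellite, 2 of 5 macrophage and 1 of 3 fat markers, and on 4 of 5 in each other list. Of those left out, Cdh15 (satellite) had 281 ± 25.3 over all its regions in the Vehicle libraries, near the fibre list at 286 ± 61.6. The next was Mrc1 (macrophage) at 102 ± 30.7. Arntl itself had a summed signal of 2688, 2248, 2557 and 1942 across the Vehicle replicates and of 3023, 3421, 3154 and 3315 across the iMSBmal1KO replicates (log2 change 0.46, adjusted p = 0.380), which gives no check of the deletion because the deleted exon is not stated.

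Sarcomere genes were among the more accessible genes of the muscle, and the fast isoforms far more so than the slow ones. Of the 45 member genes with a tested transcription start (TSS) signal, 36 lay above the median gene in the Vehicle libraries, 23 above percentile 75 and 14 above percentile 90. TSS regions are those that the table places from 999 bp before to 99 bp after a transcript start. The median member stood at percentile 78.8 of 16675 genes. The order of TSS signal per kb was led by Acta1, the skeletal alpha-actin gene, at 1819 ± 460 (SD, n = 4), followed by Tnnt3 at 1762 ± 428, Tnnc2 at 1560 ± 329 and Mylk2 at 1404 ± 395. Then came Tnni2, Pdlim5, Ldb3 and Mylpf, between 1303 and 1341, and all 8 of these neighbours lay within each other's spread. At the low end stood Myoz2 at 98.0 ± 32.6, Csrp3 at 70.6 ± 7.70, Myl3 at 58.8 ± 19.4, Tnnt1 at 58.3 ± 9.26 and Actc1, the cardiac alpha-actin gene, at 57.8 ± 34.9. Except for Csrp3 these are slow-fibre or cardiac isoform genes, and the last 4 do not differ beyond their spread. The TSS regions of Myl3 and Tnnt1 lie outside the windows around their RefSeq starts.

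Within each role the range was wide. In the thin filament TSS signal per kb ran from Acta1 down to Actc1, and in the thick filament from Mylk2, the skeletal myosin light chain kinase, down to Myl3, the slow and ventricular essential light chain, among genes with a tested TSS region. At the Z-disc it ran from Pdlim5, a PDZ and LIM adaptor, down to Csrp3, the muscle LIM protein. Among assembly genes Unc45b, a myosin chaperone, was highest at 1009 ± 265 and Capn3, a muscle calpain, lowest at 173 ± 40.4. In the M-band Myom2 stood at 691 ± 147 and Myom3 at 111 ± 22.2, both genes for myomesins that cross-link thick filaments.

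The median TSS signal per kb of 8 fast-isoform genes was 1483, 1128, 1300 and 880 across the Vehicle replicates, and 1097, 1268, 1202 and 1368 across the iMSBmal1KO replicates. For 7 slow-isoform genes it was 86.2, 106, 139 and 84.8 across the Vehicle replicates, and 135, 128, 149 and 151 across the iMSBmal1KO replicates. Every library kept the fast median above the slow median, while the median of all genes was 190 to 306. Actn3, the fast alpha-actinin, had no TSS region and is the fast gene left out. The windows around the RefSeq starts of Tnnt1, Tnni1 and Myl3 overlapped no region, and those of Myl2 overlapped none annotated to Myl2. TSS values of these slow genes therefore come from other annotated transcript starts. Over all regions of each gene, the median was 576 to 998 signal per kb for 9 fast genes and 60.0 to 87.1 for 7 slow genes across the libraries.

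Taken pair by pair, the fast gene was the more accessible at its TSS regions in every library. For Tnnt1, Tnni1, Myl2 and Myl3 those regions lie outside the windows around the RefSeq starts. The ratios with these genes therefore do not compare the RefSeq starts of both genes. The largest ratio was that of Tnnt3 to Tnnt1, the fast and slow troponin T genes, with a log2 ratio of 4.90 ± 0.38 in the Vehicle and 4.82 ± 0.33 in the iMSBmal1KO libraries (SD, n = 4 each). Mylpf against Myl2, the regulatory light chains, gave 4.68 ± 0.63 and 4.78 ± 0.46. The Myl2 value rests on a region below the test's minimum signal. Myl1 against Myl3, the essential light chains, gave 3.59 ± 1.05 and 4.51 ± 0.33, and Tnni2 against Tnni1, the troponin I genes, 2.77 ± 0.50 and 3.19 ± 0.15. The narrowest pairs were Tpm1 against Tpm3, tropomyosins, at 1.61 ± 0.14 and 1.42 ± 0.28, and Mybpc2 against Mybpc1, the fast and slow myosin-binding protein C genes, at 0.58 ± 0.23 and 0.62 ± 0.15. In these 6 pairs the groups overlapped.

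The pair of Myoz1 and Myoz2, the fast and slow calsarcins of the Z-disc, was the exception. Its log2 ratio was 3.92, 3.19, 3.20 and 3.65 across the Vehicle replicates, and 2.68, 3.07, 2.71 and 2.89 in the iMSBmal1KO libraries. All iMSBmal1KO values lay below all Vehicle values, by 0.66 on average, with 3.07 and 3.19 the nearest. No test was made of this ratio, and the share of other gene pairs that separate was not computed. For TSS sums of single genes, 4.29% of all genes did not overlap. Over all regions of each gene the same ratio was 4.00 ± 0.17 and 3.51 ± 0.27, with groups that overlapped.

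**Figure D1:**
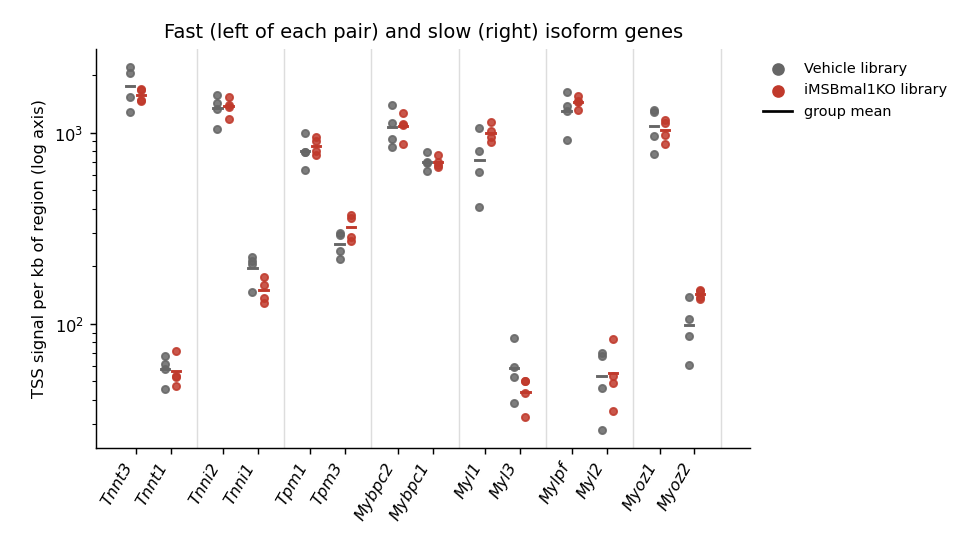
TSS signal per kb of region on a log axis for 7 pairs of fast and slow isoform genes; points are libraries (grey Vehicle, red iMSBmal1KO) and short lines group means. The fast gene lies above the slow gene in each pair, from a log2 ratio of 0.58 for Mybpc2 against Mybpc1 to 4.90 for Tnnt3 against Tnnt1 in the Vehicle libraries. TSS regions of Tnnt1, Tnni1, Myl2 and Myl3 lie outside the windows around their RefSeq starts.

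The question of the design is what loss of Bmal1 in muscle does to chromatin accessibility. For the sarcomere genes the answer at the level of whole genes was that no summed signal passed the threshold. A test with limma on log2(signal + 1), with Benjamini-Hochberg adjustment over all 22495 genes tested, called 0 of 48 members at an adjusted p under 0.05, where it called 0.129% of all genes. The same test with limma-voom also called 0. At an unadjusted p under 0.05 there were 3 members higher and 1 lower, against 7.59% of all genes higher and 1.83% lower. The median log2 change of the 48 genes was 0.06, beside 0.11 for all genes, and 36 of the 48 were above 0 (beside 66.5% of all genes). By role the median was 0.05 in the thin filament, the thick filament and the M-band, 0.09 at the Z-disc and 0.20 among assembly genes.

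Neither fast nor slow genes held a call. The median gene-level log2 change was 0.05 for 9 fast and 0.05 for 7 slow genes. Over regions, 8 of 145 tested fast-isoform regions were higher (5.52%) and 1 lower (0.690%) at an unadjusted p under 0.05, with a median of 0.18. Of 37 tested slow-isoform regions 2 were higher and 2 lower (5.41% each), with a median of -0.06. Over all regions 6.59% were higher and 2.63% lower, with a median of 0.12, and fast and slow regions were not tested against each other. These medians include Vehicle replicate 4, whose fast genes had a median of 576 signal per kb, against 751 to 998 in the other Vehicle libraries. Its slow genes had 78.5, inside the 60.0 to 87.1 of the others. Without it the gene-level difference of fast minus slow genes was -0.10. The difference between fast and slow genes at the gene level lay between -0.11 and 0.12 over the alternatives, within the spread between replicates of 0.21.

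**Figure D2:**
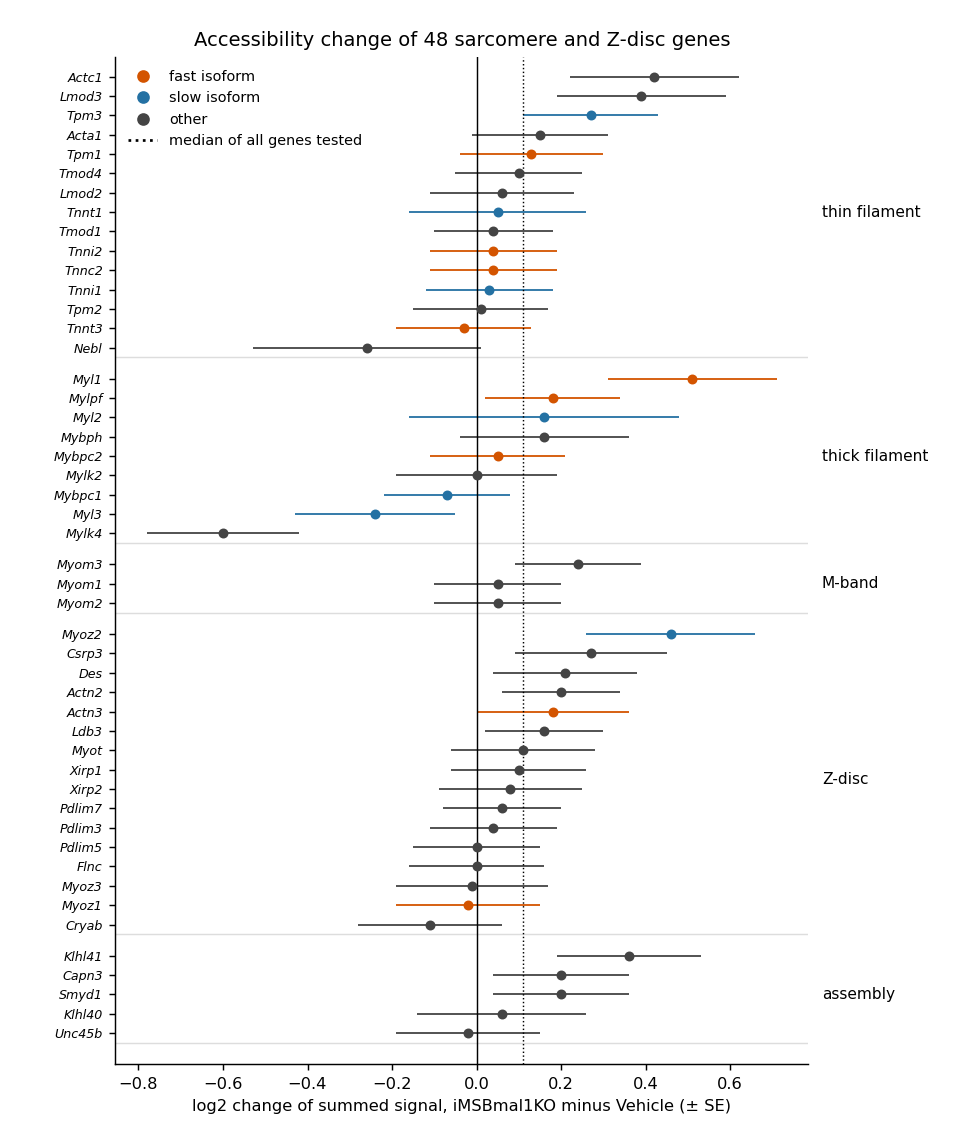
Log2 change of summed signal (iMSBmal1KO minus Vehicle, ± SE) for 48 genes by role; orange marks fast, blue slow isoform genes, and the dotted line is the median of all genes tested (0.11). Mylk4 is lowest at -0.60 and Myl1 highest at 0.51, and no gene passed the threshold.

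The lowest and the highest gene-level value were both those of thick-filament genes, Mylk4 and Myl1. Mylk4, a myosin light chain kinase family gene, had the lowest log2 change at -0.60 ± 0.18 (SE, adjusted p = 0.380). It was followed by Nebl, which encodes the nebulin relative nebulette, at -0.26 ± 0.27 and Myl3 at -0.24 ± 0.19. Highest were Myl1 at 0.51 ± 0.20 (adjusted p = 0.504), Myoz2 at 0.46 ± 0.20 (adjusted p = 0.515) and Actc1 at 0.42 ± 0.20 (adjusted p = 0.533). Single libraries carried much of some of these values. Without Vehicle replicate 4 Nebl stood at -0.04, Myl1 at 0.30 and Myoz2 at 0.29, and leaving out 1 library in turn gave -0.47 to -0.04 for Nebl, -0.35 to -0.16 for Myl3 and 0.28 to 0.57 for Actc1.

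Region by region, the one call with all libraries was in Mylk4. Of 770 member regions with enough signal to be tested, 1 passed an adjusted p under 0.05, and it was lower and in Mylk4; of all 124901 tested regions 0.0881% passed. At an unadjusted p under 0.05 there were 47 member regions higher (6.10%) and 38 lower (4.94%), against 6.59% and 2.63% of all regions. Mylk4 held 28 of the 38 lower ones. Without Mylk4, 0 of 720 regions passed the threshold, 47 were higher and 10 lower (1.39%) at an unadjusted p under 0.05, and the median log2 change was 0.12, the same as over all regions. This split over all member regions depends on scaling. With size factors recomputed by median-of-ratios it was 31 higher and 58 lower, where 4.87% of all regions were higher and 4.90% lower. With a loess correction it was 29 and 63, beside 4.90% and 5.22%, and without Vehicle replicate 4 it was 29 and 54, beside 4.43% and 3.40%. The median over all tested regions moved with these settings from 0.12 to 0.01, 0.01 and 0.04, and that of the member regions from 0.09 to -0.02, -0.02 and -0.03. Without iMSBmal1KO replicate 1 the call in Mylk4 was lost and a TSS region of Mybph, chr1:134193326-134193482, was called instead (log2 change 1.43, adjusted p = 0.0222, against 1.13 and 0.205 with all libraries).

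Mylk4 lies on the minus strand at chr13:32700827-32783955 as the table lists it, with 100 regions of which 50 were tested. The region past the threshold is chr13:32723752-32723982, in intron 3. It held a signal of 43.7, 59.6, 47.0 and 62.5 across the Vehicle replicates, and 12.4, 14.2, 22.7 and 22.6 in the iMSBmal1KO libraries. The groups did not overlap, and the log2 change was -1.55 ± 0.29 (SE, adjusted p = 0.0416). Behind these values stood 20 to 74 reads per Vehicle replicate and 17 to 29 per iMSBmal1KO replicate. The call is close to the threshold: over 17 alternatives the region stayed lower in each, with log2 changes of -1.69 to -1.36, and was called in 9, with adjusted p between 0.0129 and 0.182. It was lost on leaving out any 1 library other than Vehicle replicate 4.

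Values below 0 were found along the whole of Mylk4. Of its 50 tested regions 46 had a log2 change below 0, beside 38.0% of all regions, and the median was -0.94. At an unadjusted p under 0.05, 28 were lower and 0 higher, and in 17 all iMSBmal1KO values lay below all Vehicle values, where 1.87% of all regions did so. The 28 regions lay from 10 bp before to 74593 bp after the transcript start that the table assigns to each. Neighbouring regions of a gene share fragments, so these are not independent measurements. They were found at all levels of signal: regions with a mean Vehicle signal up to 30 had a median of -0.93 (21 of 25 below 0), those from 30 to 100 a median of -1.16 (19 of 19) and the 6 above 100 a median of -0.45 (6 of 6).

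**Figure D3:**
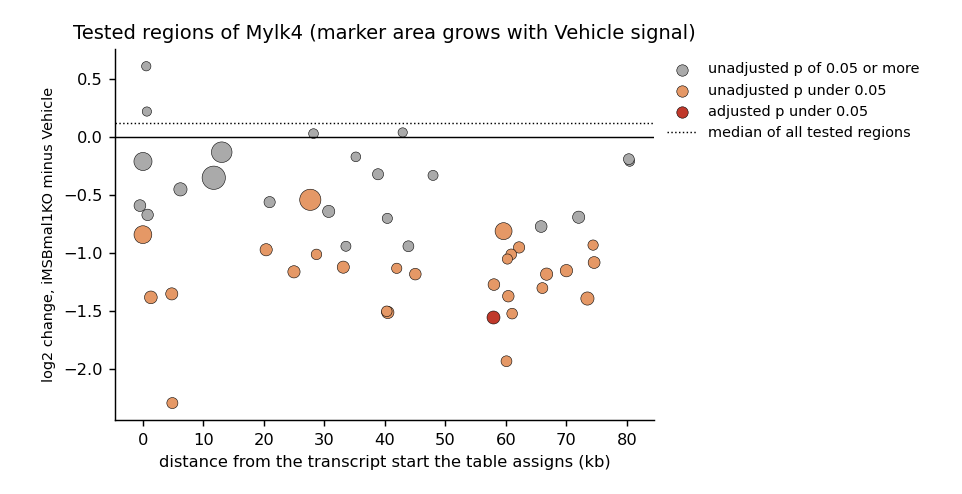
Log2 change (iMSBmal1KO minus Vehicle) of the 50 tested Mylk4 regions against distance from the transcript start the table assigns, in kb; marker area grows with Vehicle signal, and the dotted line is the median of all tested regions (0.12). Of the 50 points 46 lie below 0; the red point is the region past the threshold at -1.55.

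The summed signal of Mylk4 was 4718, 3967, 4014 and 2473 across the Vehicle replicates, and 2036, 2857, 2184 and 2756 across the iMSBmal1KO replicates. The groups overlapped only through Vehicle replicate 4, the library lowest for most members. Without that library the log2 change was -0.79 and passed the threshold (adjusted p = 0.00336). Of the 50 regions 49 were then below 0 and 7 were called. Leaving out 1 library in turn gave -0.79 to -0.48. Without Vehicle replicate 1 the gene was not called, 0 of its regions were called and their median was -0.72. A share of the sarcomere signal within a library does not change with the factor of that library. Mylk4 made up 5.21%, 5.23%, 5.11% and 4.38% of the summed member signal across the Vehicle replicates, and 2.92%, 3.52%, 2.86% and 3.27% in the iMSBmal1KO libraries, with no overlap. This share was examined after the values were known and was not tested. By the same measure 1 other gene was lower without overlap, Mybpc1, and 4 were higher, Capn3, Klhl41, Myom3 and Myoz2; of all genes set against the same sum, 3.86% did not overlap.

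Genes next to Mylk4 had changes smaller in size than its -0.60, and only a short gene that lies inside Mylk4 had a larger one. Gmds and AL645799.1 on one side had gene-level log2 changes of 0.23 and 0.24, and Wrnip1 and Serpinb1a on the other 0.07 and 0.18. Gm27342, a short gene inside Mylk4, had -0.87 ± 0.42 from 1 tested region, and D930007J09Rik, next to Wrnip1, -0.43 ± 0.21 with groups that did not overlap. None of these 6 had an adjusted p under 0.05. The difference between Mylk4 and its neighbours was not tested.

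The TSS region of Mylk4 with the most signal in the first Vehicle library gave 333, 190, 239 and 122 across the Vehicle replicates, and 91.2, 151, 90.7 and 142 in the iMSBmal1KO libraries, with groups that overlapped (log2 change -0.84 ± 0.28, adjusted p = 0.432). It covers the upstream sequence of Mylk4 in RefSeq (build GRCm38.p6). Of the 49 genes 38 had such a promoter sequence, and 4 are printed because their TSS values lie at the ends of the range described here. Each is the 250 bases before the RefSeq start, 5' to 3' on the gene's own strand. Capitals mark CAGCTG (an E-box bound by myogenic factors), TATAAA on either strand or the MEF2 consensus; CACGTG, the E-box bound by the CLOCK and BMAL1 pair, was searched on both strands and has no match in these 4.
Mylk4, chr13:32783965-32784214, minus strand: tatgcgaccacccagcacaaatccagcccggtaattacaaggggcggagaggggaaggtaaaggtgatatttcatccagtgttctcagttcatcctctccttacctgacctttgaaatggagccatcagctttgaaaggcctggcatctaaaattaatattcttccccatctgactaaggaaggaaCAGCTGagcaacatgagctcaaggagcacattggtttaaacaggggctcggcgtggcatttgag
Mybph, chr1:134193198-134193447, plus strand: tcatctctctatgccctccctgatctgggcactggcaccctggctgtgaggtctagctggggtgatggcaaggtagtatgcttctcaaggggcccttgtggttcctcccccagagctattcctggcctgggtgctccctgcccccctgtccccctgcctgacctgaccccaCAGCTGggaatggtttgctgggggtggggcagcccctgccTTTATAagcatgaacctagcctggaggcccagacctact
Myl1, chr1:66945057-66945306, minus strand: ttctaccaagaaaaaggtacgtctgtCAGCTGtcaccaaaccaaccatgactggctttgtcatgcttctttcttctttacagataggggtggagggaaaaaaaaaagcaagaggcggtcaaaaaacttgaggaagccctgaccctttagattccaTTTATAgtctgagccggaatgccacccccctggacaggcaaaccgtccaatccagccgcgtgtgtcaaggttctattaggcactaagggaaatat
Myoz2, chr3:123034988-123035237, minus strand: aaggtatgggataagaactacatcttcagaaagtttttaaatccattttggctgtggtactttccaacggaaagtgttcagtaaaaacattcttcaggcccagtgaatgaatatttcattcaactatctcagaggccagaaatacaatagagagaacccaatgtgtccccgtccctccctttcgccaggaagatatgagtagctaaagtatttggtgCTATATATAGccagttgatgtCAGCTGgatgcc

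The 4 sequences share CAGCTG, at 64 to 59 bases before the start in Mylk4, 79 to 74 in Mybph, 224 to 219 in Myl1 and 12 to 7 in Myoz2. Over windows of 250 bases before to 50 after a start, 17 of the 38 member genes held CAGCTG (44.7%), beside 18.3% of 27025 genes. The MEF2 consensus was found in Capn3, Klhl41, Myoz2 and Xirp2, 10.5% of member genes beside 0.636% of all genes, and TATAAA in 8 members (21.1% beside 15.7%). The clock E-box CACGTG was in Actn2, Nebl and Unc45b, 7.89% of member genes beside 8.09% of all genes. These are matches of letters and say nothing of whether a factor is bound. Gene-level log2 changes of the 3 genes with CACGTG were 0.20 for Actn2, -0.26 for Nebl and -0.02 for Unc45b, and none passed the threshold. The window of Nebl that holds CACGTG overlaps no region of the table, so the value of that gene comes from other places.

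Mybph, which encodes the thick-filament protein myosin-binding protein H, had the highest TSS value. Its summed TSS signal was 53.3, 59.6, 73.7 and 46.9 across the Vehicle replicates, and 66.3, 202, 177 and 129 in the iMSBmal1KO libraries. In 3 of the 4 iMSBmal1KO libraries it lay far above the Vehicle range, and replicate 1 lay inside that range. The log2 change of 1.19 ± 0.27 did not pass the threshold over 16675 genes (adjusted p = 0.108); without iMSBmal1KO replicate 1 it was 1.51 and passed. Set against the other regions of the same gene, the TSS signal of Mybph had a log2 ratio of -4.74, -4.29, -4.32 and -4.30 across the Vehicle replicates and of -3.70, -2.99, -3.15 and -3.41 in the iMSBmal1KO libraries. By this within-gene ratio the groups did not overlap, with a difference of 1.10 ± 0.19 (adjusted p = 0.0604 over 10600 genes). The share of all genes that separate by this ratio was not computed. In iMSBmal1KO replicate 1 the summed signal of the whole gene was the lowest of all libraries, at 938. The ratio of that library therefore does not show a higher TSS signal in it.

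Most of the signal of Mybph lies elsewhere. A region of intron 3 at chr1:134195870-134196799 held 1356, 1096, 1352 and 863 in the Vehicle and 799, 1397, 1393 and 1236 in the iMSBmal1KO libraries, with a log2 change of 0.04 ± 0.20. It sets the sum over the gene, whose log2 change was 0.16 ± 0.20. All 8 tested regions of Mybph were above 0, with a median of 0.56, where 62.0% of all regions were above 0. Regions of a gene are not independent, and the share of genes with this pattern was not computed. Adora1, an adenosine receptor gene that overlaps the end of Mybph, followed the same libraries, with a summed signal of 246 in iMSBmal1KO replicate 1 and 543, 499 and 430 in the others, against 244 to 303 in the Vehicle libraries (log2 change 0.59, adjusted p = 0.499).

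Myl1 encodes the fast essential light chains from 2 start regions, and all 16 of its tested regions had a log2 change above 0, with a median of 0.52. Its summed signal was 2120, 1542, 1328 and 916 across the Vehicle replicates, and 2166, 1936, 1677 and 2341 across the iMSBmal1KO replicates. The groups overlapped, since Vehicle replicate 1 lay among the iMSBmal1KO values. Without Vehicle replicate 4 the log2 change was 0.30. Klhl41 and Lmod3, both needed for thin-filament integrity, had all of their 8 and 7 tested regions above 0, at medians of 0.37 and 0.67, and Mylpf all of 5, at 0.24. These genes are named for that pattern, beside 62.0% of all regions above 0. The share of genes with all tested regions above 0 was not computed, and regions of a gene are not independent. Without Vehicle replicate 4 the gene-level log2 change of Klhl41 was 0.24 in place of 0.36 and that of Lmod3 0.19 in place of 0.39. Mylpf had a summed signal of 2615, 2063, 2189 and 1463 across the Vehicle replicates, and 2313, 2481, 2095 and 2341 across the iMSBmal1KO replicates. With Vehicle replicate 4 left aside, its iMSBmal1KO values lay inside the Vehicle range.

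Myoz2 was the 1 member gene whose summed signal did not overlap between groups, beside 4.93% of all genes. It was 103, 101, 104 and 62.5 across the Vehicle replicates, and 125, 119, 141 and 118 across the iMSBmal1KO replicates. Its TSS signal of 35.2, 43.2, 56.6 and 25.0 against 55.2, 56.9, 60.8 and 61.5 overlapped by Vehicle replicate 3 alone (log2 change 0.60 ± 0.25, adjusted p = 0.475). Without Vehicle replicate 4 the log2 change was 0.29 for the sum (adjusted p = 0.833) and 0.40 for the TSS signal. The low level of the gene limits this, with 2 of its 18 regions tested.

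**Figure D4:**
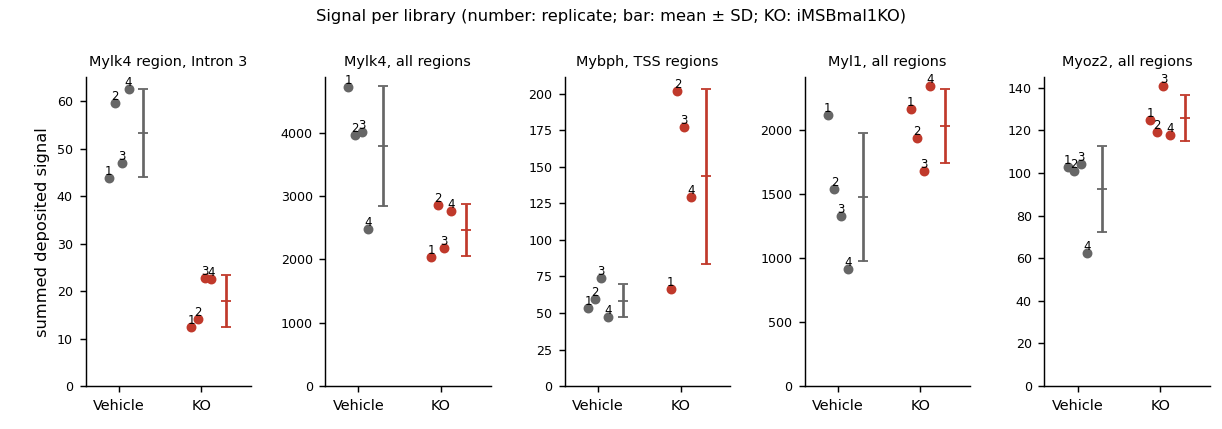
Deposited signal per library, summed over the regions named above each panel; numbers are replicates and bars the mean ± SD (n = 4), with KO standing for iMSBmal1KO. Groups do not overlap in the Mylk4 region of intron 3 and in the sum of Myoz2, while Vehicle replicate 4 bridges the sum of Mylk4 and iMSBmal1KO replicate 1 the TSS of Mybph.

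Summed over TSS regions, 0 of 45 member genes passed the threshold, beside 0.0840% of all genes; at an unadjusted p under 0.05 there were 4 higher and 1 lower (8.95% and 1.18% of all genes). Besides Mybph and Myoz2, the highest values were those of Myl1 at 0.54 ± 0.21 and Klhl41 at 0.52 ± 0.22, and the lowest was that of Mylk4 at -0.50 ± 0.21. Without Vehicle replicate 4 these were 0.30, 0.34 and -0.67, and without Vehicle replicate 1 they were 0.75, 0.71 and -0.31. The median TSS change of members was 0.06 beside 0.17 for all genes.

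Against the other regions of the same gene, TSS signal of 41 member genes had a median change of -0.03, beside 0.13 over all 10600 genes, and 0 members passed the threshold (0% of all genes). At an unadjusted p under 0.05 the count was 1 higher, Mybph, and 2 lower, where 7.71% of all genes were higher and 1.98% lower. The lower ones were Ldb3, the Z-disc protein ZASP, at -0.35 ± 0.10 (adjusted p = 0.405) and Tnnt3 at -0.28 ± 0.12 (adjusted p = 0.498). In Ldb3 the log2 ratio was -1.79, -1.98, -1.64 and -1.74 across the Vehicle replicates, and -2.36, -1.97, -2.13 and -2.10 in the iMSBmal1KO libraries, which overlap by a narrow margin.

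By section of the gene, 153 tested TSS regions of members had a median log2 change of 0.07 and 617 other regions 0.11. Over the whole table these medians were 0.17 for TSS regions and 0.09 for other regions of genes. The highest member median was that of 61 regions at transcript ends (TTS), 0.27 beside 0.06, with 6 higher (9.84%, beside 6.05%) and 0 lower at an unadjusted p under 0.05. Coding exons had 0.15 beside 0.06, 5' UTR exons 0.06 beside 0.08, first introns 0.02 beside 0.08 and later introns 0.12 beside 0.11. The lowest median was that of 15 regions in 3' UTR exons, -0.02 beside 0.10, with 3 of the 15 lower (beside 3.36% of all such regions), all 3 in Mylk4. Of the 113 first-intron regions 12 were lower at an unadjusted p under 0.05 (10.6%, beside 2.93% of all first-intron regions), and 10 of the 12 were in Mylk4. Among regions other than TSS 36 were lower (5.83%), beside 3.09% over all genes, and without Mylk4 9 of 570 (1.58%). No section was tested against another.

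**Figure D5:**
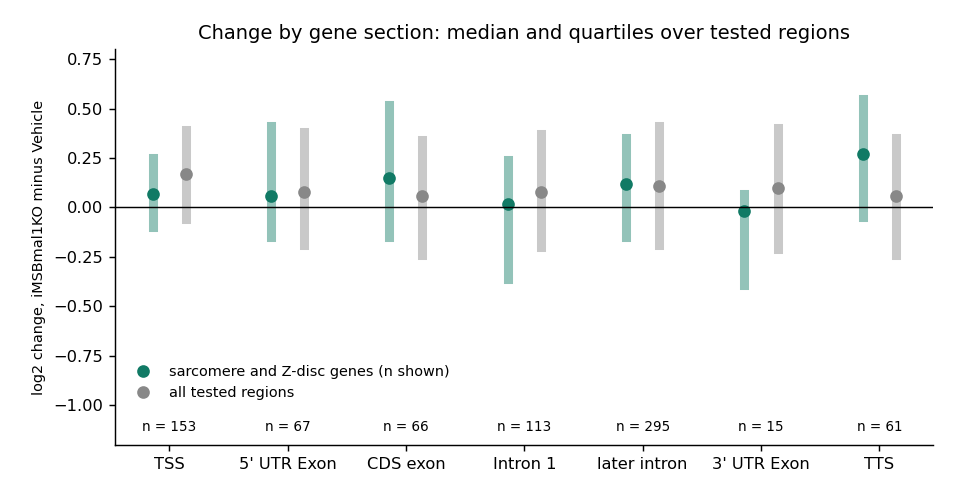
Log2 change (iMSBmal1KO minus Vehicle) by gene section: points are medians and bars the quartiles over tested regions, green for members (n beneath) and grey for all tested regions. Members at transcript ends have the highest median, 0.27, where all regions have 0.06, and members in 3' UTR exons the lowest, -0.02, where all regions have 0.10.

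The other single regions singled out by their p did not pass the threshold. Choosing regions by small p favours groups that do not overlap. Of all tested regions 3.62% were higher without overlap, beside 3.77% of member regions. At the Z-disc, a region of Ldb3 in intron 4, chr14:34573320-34573756, had a signal of 280, 247, 259 and 156 across the Vehicle replicates, and 421, 334, 434 and 373 across the iMSBmal1KO replicates. Its groups did not overlap, at a log2 change of 0.75 ± 0.21 (adjusted p = 0.291), and leaving out 1 library in turn gave 0.57 to 0.85. A region of Pdlim5 in intron 3, chr3:142349202-142349413, had 40.5, 38.0, 43.2 and 50.0 against 68.5, 96.2, 71.6 and 71.5, also without overlap (0.82 ± 0.24, adjusted p = 0.330). In Xirp1, an actin-binding gene of fibre junctions, a TSS region of 51 bp had 2.88 ± 0.89 (adjusted p = 0.373), from 0 to 13 reads per Vehicle replicate and 10 to 51 per iMSBmal1KO replicate. At such low counts the value depends on the pseudocount, at 1.64 with 5 and 3.41 with 0.5, and leaving out 1 library in turn gave 2.41 to 3.69. In Actn2, the alpha-actinin gene of all fibres, a region of intron 1 had 1.29 ± 0.45 (adjusted p = 0.448), and 0.76 without Vehicle replicate 1.

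On the lower side, a region of Lmod2 in intron 1, chr6:24600076-24600190, had a mean signal of 23.1 ± 3.52 in the Vehicle and 11.6 ± 5.21 in the iMSBmal1KO libraries, without overlap (-1.01 ± 0.35, adjusted p = 0.434). Lmod2 encodes a leiomodin, which nucleates actin. In Tnni1 a region annotated to a 5' UTR exon, chr1:135793676-135793918, had 28.4 ± 6.23 and 16.2 ± 2.78, also without overlap (-0.76 ± 0.30, adjusted p = 0.499). A region of Tmod1, the tropomodulin that caps thin filaments, had -0.74 ± 0.29 and one of Mybpc1 -0.99 ± 0.40, both with groups that overlapped. Fewer than 100 reads in any library stood behind each of these 4 regions. Of all tested regions 1.87% were lower without overlap, beside 1.25% of member regions without Mylk4.

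Of the 18 further sarcomere genes listed for comparison, among them the myosin heavy chains, titin and nebulin, 0 passed the threshold at the gene level and 0 of their 716 tested regions did. At an unadjusted p under 0.05, 57 of these regions were higher and 5 lower (7.96% and 0.698%, beside 6.59% and 2.63% of all regions), with a median log2 change of 0.27 beside 0.12. The extremes were Myh4, the main fast myosin heavy chain, at 0.66 ± 0.25 (adjusted p = 0.503) and Tcap, the titin cap of the Z-disc, at -0.44 ± 0.18 (adjusted p = 0.513). Myh4 was lowest in Vehicle replicate 4, at 600 against 1181 to 1607 in the other Vehicle libraries.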

How the data were processed

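The authors deposited 1 table of signal per region and library with gene annotation. Their processing notes name Partek, Bowtie2, MACS2 and DESeq2 without versions, and the builds mm10 and GRCm39; duplicate removal, read shifting and peak settings are not given in the sources used here. The signal as deposited is never negative, and in each library 98.27% to 99.75% of non-zero values are whole multiples of 1 step within 0.02 reads, so it was treated as reads divided by a factor per library; depth is in these read equivalents, in M (units of 1000000). Since the values are not whole counts, the test laid down for a normalized signal was used. Positions of 48 of 48 members overlap the RefSeq gene of that name in GRCm38.p6, whose promoter sequences were used; regions are given as listed, counted from 1, with the stop 1 base past the region.

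A region was kept if its signal came to 0.762 read equivalents per M in 4 libraries and to 15 read equivalents in sum, and genes where 4 libraries held 10. Then limma-trend (limma 3.58.1, R 4.3.3) with robust moderation was fitted on log2(signal + 1) with group as the only term, over all 124901 regions, over genes (regions summed), over TSS sums and over the log2 ratio of TSS to other signal, each adjusted by Benjamini-Hochberg with a threshold of 0.05. Log2 changes understate those of low regions. On simulated libraries the region fit called 6% of 2-fold and 72% of 4-fold changes among 200 changed regions of 124901, so in that setting 2-fold changes of single regions were mostly missed. The simulation used the depth of each library and a fixed negative binomial dispersion of 0.05 that was not estimated from these data. It set no library apart as Vehicle replicate 4 is, so the rates for the real libraries can differ. Tables and figures used Python 3.11.15, pandas 2.3.3 and matplotlib 3.10.9.

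The members and all lists were chosen with earlier results of these data known. Named were the fast and slow lists, member regions past the threshold, the 5 higher and 5 lower member regions of smallest p (at most 1 per gene), the 3 genes highest and lowest at the gene level, and the members highest and lowest at the TSS per role; neighbouring genes, Klhl41, Lmod3, shares of the sarcomere signal, Ldb3 and Tnnt3 ratios, Adora1 and genes with CACGTG were named after values were seen. Promoter sequences were missing for 11 members. Alternatives were other scalings, pseudocounts, filters, limma-voom, merged abutting regions (44.7% of member regions abut another), each replicate left out and the replicate number as a block.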

Additional observations from a re-analysis of the deposited data

Results flagged for a closer look

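Of 224 groups of 4 libraries examined, 11 held 1 library far from the other 3 by Dixon's 95% limit, where chance gives 11.2. The summed signal was high in 1 library for Tnnt1 (Vehicle replicate 3, 61.0 against 52.2 to 53.2) and for Klhl40, a nemaline myopathy gene whose regions are all TSS regions (iMSBmal1KO replicate 2, 171 against 138 to 140, both over all and over TSS regions). It was low in Vehicle replicate 4 for Tnni1 (419 against 509 to 524) and Myoz2 (62.5 against 101 to 104). It was low in iMSBmal1KO replicate 1 for Myom3 (1255 against 1502 to 1520), Myot, the gene of the Z-disc protein myotilin (1037 against 1337 to 1371), and Flnc, the gene of filamin C (1148 against 1463 to 1494). The Pdlim5 region of intron 3 was high in iMSBmal1KO replicate 2 (96.2 against 68.5 to 71.6), and the Actn2 region of intron 1 low in iMSBmal1KO replicate 3 (15.5 against 24.3 to 26.1). The log2 ratio of Tnni2 to Tnni1 at the TSS was high in iMSBmal1KO replicate 2 (3.41 against 3.10 to 3.13).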

How the results depend on the processing

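The count of member regions past the threshold was 1. It was 0 at a threshold of 0.01 and without Mylk4, the latter chosen after seeing the data, 5 with median-of-ratios factors, 6 with loess, 3 with the filter in all 8 libraries and 2 with abutting regions merged; in these 4 settings each called region was in Mylk4. Leaving out 1 library gave 0 to 7, with 7, all in Mylk4, without Vehicle replicate 4 and 1, in Mybph and not in Mylk4, without iMSBmal1KO replicate 1. The count of member genes was 0, and 1 (Mylk4) with median-of-ratios factors and loess; leaving out 1 library gave 0 to 1. The TSS count was 0, and 1 (Mybph) with total signal as the scale; leaving out 1 library gave 0 to 1, with 1 without Vehicle replicate 2 or iMSBmal1KO replicate 1. The count for TSS against other signal was 0, and 1 (Mybph) with a pseudocount of 5. With the replicate block these 4 counts were 0, 0, 1 and 1, where both calls are Mybph. Over all features the block moved the calls from 110 to 100 regions, 29 to 112 genes, 14 to 72 TSS sums and 0 to 5 ratios. Deviations of same-numbered libraries correlated at -0.064, 0.14, 0.023 and 0.025. Such deviations of single regions hold counting noise, so they do not settle whether the numbers pair the libraries. The cause of these moves was not tested. The median change of member regions (-0.03 to 0.15) and that of TSS minus other regions (-0.06 to -0.02) moved by less than the spread between replicates under every alternative run. That spread, 0.20 and 0.05, is larger than the values themselves, 0.09 and -0.04, so this is a loose limit. The within-gene ratio was not run with loess. At a median of 6 reads per tested region, Vehicle replicate 4 limits what low regions can show.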
